A study of Homo sapiens with 4 samples.

Results

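The BCL2 family decides whether the outer membrane of mitochondria stays sealed, and 10 of its genes were followed here across 4 expression arrays. They were chosen by name and not by a rule on measured values, but with earlier results of these data known. Every probe that the platform annotation pairs with them was kept. The 10 were the pro-survival genes BCL2, BCL2L1 and MCL1, the effectors BAX and BAK1, and the BH3-only genes BID, BIK, BCL2L11, PMAIP1 and BBC3. All 10 had a probe, 18 probes in total, of 19090 genes and 28264 probes on the array.

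The arrays came from cells labelled HepG2, a human liver tumour line, each transfected by the reagent INTERFERin with 1 small double-stranded RNA. One array held cells given a negative control duplex (NC) made to have no match in the human genome, 1 a miR-214 mimic, and 2 held siPVT1-1 and siPVT1-2, a pair of duplexes against the long noncoding RNA PVT1. All 4 groups were grown in the same medium, and all received a duplex. Each group held 1 array, so no difference has a replicate check and none has a p-value; the number of arrays limits the precision.

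BAX and BAK1 proteins make the pores through which cytochrome c leaves the mitochondrion, which starts the caspases. BCL2, BCL-XL (the main product of BCL2L1) and MCL1 bind and restrain them, and MCL1 protein is short-lived. BH3-only proteins are the stress sensors of the family: BIM (from BCL2L11), BID and PUMA (from BBC3) bind all the main pro-survival proteins, while NOXA (from PMAIP1) binds MCL1 with preference. PMAIP1 is known to be induced by the stress factor ATF4.

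The source used here does not say which strand of miR-214 the mimic carries, so both mature arms are shown, since the first letters of the arm in use decide which transcripts it can bind. RefSeq places them on the minus strand of GRCh38.p14, the 3p arm at chr1:172138816-172138837 and the 5p arm at chr1:172138857-172138878. Capitals mark the seed, bases 2 to 8.
hsa-miR-214-3p: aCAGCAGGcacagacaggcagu
hsa-miR-214-5p: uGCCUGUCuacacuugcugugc
Target sites of these seeds in the transcripts of the family were not analysed here.

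Median deposited intensities lay between 784.1 and 926.9 on the 4 arrays. After quantile normalization each gene was read from the brightest of its probes. The 10666 genes with a mean log2 level over 9.72, which is the median over all probes, were compared. A gene counted as higher or lower when 2 arrays lay at least 2-fold apart, a log2 difference of 1. Signals of liver genes were low for cells labelled HepG2: of 12 hepatocyte markers with a probe, 2 lay above the level filter, and the median stood at percentile 23.6 of all genes. Of other markers, 3 of 7 fibroblast, 1 of 4 blood, 2 of 4 endothelial and 1 of 2 squamous epithelial genes lay above it. The median percentile of the fibroblast markers was lower than that of the hepatocyte markers, at 13.4, while the highest of them stood at 97.9. The summed intensity of the hepatocyte markers ranged from 4116 to 4724 over the arrays. That of the fibroblast markers ranged from 111239 on NC to 136379 on siPVT1-2. Sums of different lists are not comparable because probes differ in brightness. The part of these markers in the results was not tested. No probe was paired with PVT1, so its knockdown was not checked here.

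Of the 10 genes, 9 passed the level filter. BCL2 did not: its brighter probe gave log2 levels of 8.15 on NC, 8.11 with the mimic, 7.67 with siPVT1-1 and 7.86 with siPVT1-2, and its other probe was at the floor on every array. No difference is drawn from either.

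**Figure D1:**
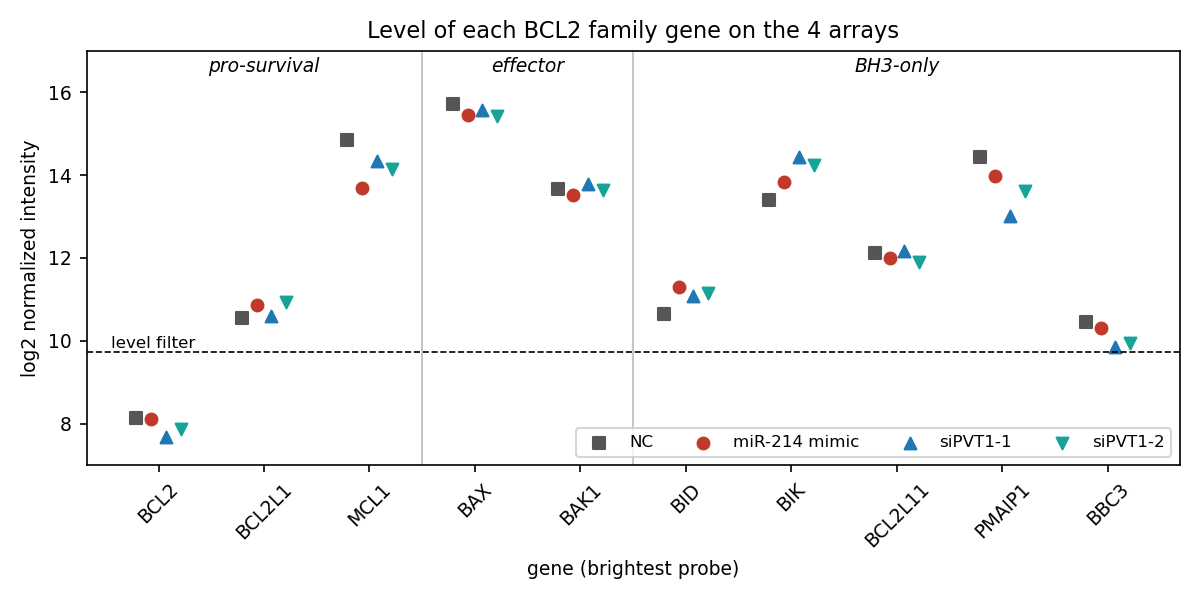
Log2 normalized intensity of the brightest probe of each gene (y axis) on the NC, miR-214 mimic, siPVT1-1 and siPVT1-2 arrays, 1 point per array, with genes grouped by role along the x axis. MCL1 and PMAIP1 are highest on NC, BIK is lowest there, and BCL2 lies under the dashed line of the level filter at 9.72; heights of different genes are not comparable because probes differ in brightness.

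Of the 2 pro-survival genes compared, only MCL1 passed 2-fold from NC, and only with the mimic. Its deposited intensity was 28708 on NC, 13394 with the miR-214 mimic, 20637 with siPVT1-1 and 17936 with siPVT1-2. Its normalized log2 levels were 14.84, 13.68, 14.34 and 14.14 in that order. NC was the highest array and the mimic the lowest, with both siRNA arrays between them. With the mimic MCL1 was 2.24-fold lower than on NC, a log2 difference of -1.16, and 1.77% of the compared genes had a lower difference. The differences with siPVT1-1 and siPVT1-2 were -0.51 and -0.70, within 2-fold. With each array centred on its median the mimic difference was -0.94, within 2-fold, but all compared genes then shifted by 0.108, and relative to that shift it was -1.05. In cultured cells less MCL1 signal from fewer cells that express it and from less RNA per cell cannot be told apart. MCL1 had 1 probe, so no second probe bears on it.

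BCL2L1 encodes BCL-XL or, by alternative splicing, a shorter form that promotes death, and which form its probe reads is not known here. Its log2 levels were 10.56 on NC, 10.87 with the mimic, 10.60 with siPVT1-1 and 10.93 with siPVT1-2. The array values spanned 0.37, and none lay 2-fold from another. BCL2L2, the gene of the pro-survival protein BCL-W and not among the 10, had log2 differences from NC of -0.83 with the mimic, -0.14 with siPVT1-1 and -0.32 with siPVT1-2.

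The effectors were nearly level across the arrays. BAX gave log2 levels of 15.73 on NC, 15.45 with the mimic, 15.58 with siPVT1-1 and 15.42 with siPVT1-2. Its second probe gave 14.12, 13.96, 13.93 and 13.73. By both probes NC was the highest array, but the differences from it ran only from -0.15 to -0.39. With each array centred on its median the brighter probe's differences turned to 0.03, 0.12 and 0.03, so BAX has no settled direction.

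BAK1 gave 13.66 on NC, 13.51 with the mimic, 13.78 with siPVT1-1 and 13.64 with siPVT1-2. Its second probe disagreed with this on siPVT1-1, at a log2 difference of -0.42 against 0.12 by the brighter one. A gap of this size or larger between the first and second probe is uncommon: 89.3% of the 2214 genes with 2 probes above the filter had a smaller gap in that comparison.

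PMAIP1, the gene of NOXA, had the largest difference from NC of the 9 genes compared on the siPVT1-1 array; with the mimic MCL1 and BID differed more, and with siPVT1-2 BIK did by a small margin. Its deposited intensity was 21773 on NC, 16346 with the mimic, 8234 with siPVT1-1 and 12362 with siPVT1-2. The normalized log2 levels were 14.43, 13.97, 13.02 and 13.61. NC was highest and siPVT1-1 lowest. With siPVT1-1 PMAIP1 was 2.66-fold lower than on NC, a log2 difference of -1.41, and 0.69% of compared genes had a lower difference. With siPVT1-2 the difference was -0.82 and with the mimic -0.46, both within 2-fold. A second probe placed the arrays in the same order, with log2 levels of 12.68 on NC, 12.48 with the mimic, 11.17 with siPVT1-1 and 12.09 with siPVT1-2. By that probe the difference with siPVT1-1 was -1.51.

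BBC3, the gene of PUMA, kept the order of arrays seen for PMAIP1 at a smaller size. Its log2 levels were 10.46 on NC, 10.32 with the mimic, 9.86 with siPVT1-1 and 9.96 with siPVT1-2. The differences from NC were -0.15, -0.60 and -0.51, all within 2-fold. Both siRNA arrays lay below the mimic and NC arrays, but only 0.10 apart from each other. Over all compared genes 5.18% had this order, NC above the mimic above siPVT1-2 above siPVT1-1.

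The window around the gene start of both genes is shown because their arrays were ordered alike. Each runs from 250 bases before the start to 50 after it, from RefSeq on GRCh38.p14, PMAIP1 at chr18:59899746-59900045 on the plus strand and BBC3 at chr19:47232618-47232917 on the minus strand. Capitals in PMAIP1 mark TGACGT, a core of the cAMP response element, which ATF and CREB proteins bind, found here on the opposite strand. Capitals in BBC3 mark CACGTG, the E-box that MYC and related proteins bind.
PMAIP1: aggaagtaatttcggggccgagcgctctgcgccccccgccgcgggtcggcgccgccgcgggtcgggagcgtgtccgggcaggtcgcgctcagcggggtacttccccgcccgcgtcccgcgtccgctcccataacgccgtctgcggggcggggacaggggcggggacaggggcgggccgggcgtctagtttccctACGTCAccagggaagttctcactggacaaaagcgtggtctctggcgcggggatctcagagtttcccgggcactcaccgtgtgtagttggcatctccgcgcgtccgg
BBC3: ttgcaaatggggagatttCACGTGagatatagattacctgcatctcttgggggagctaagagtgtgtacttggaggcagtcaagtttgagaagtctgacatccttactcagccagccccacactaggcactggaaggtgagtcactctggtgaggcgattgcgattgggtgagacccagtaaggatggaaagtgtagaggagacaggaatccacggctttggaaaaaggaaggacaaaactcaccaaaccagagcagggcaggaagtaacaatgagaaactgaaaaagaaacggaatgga
The window was given for 8 of the 10 genes, 13 windows in all, since BID and BCL2L1 have several starts. Searched on both strands, TGACGT stood in 1 of the 13, that of PMAIP1, and in 7.98% of all 35116 windows. CACGTG stood in 4 of the 13, from 3 of the 8 genes (BAX, BID and BBC3), and in 7.26% of all windows. TGATGNAA, the core of the element through which ATF4 answers amino acid shortage, stood in none of the 13 and in 3.62% of all windows. GGGCGG, the GC box, stood in 9 of the 13, from 6 of the 8 genes, and in 44.95% of all windows. Windows of BID overlap, so the same site is counted in more than 1 of them. The motifs do not overlap one another in the PMAIP1 window, which holds 4 GC boxes. A match describes these letters and does not show a bound site.

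BIK, whose protein sits at the endoplasmic reticulum and binds pro-survival proteins, went the other way. Its deposited intensity was 10725 on NC, 14988 with the mimic, 22095 with siPVT1-1 and 18986 with siPVT1-2. The normalized log2 levels were 13.39, 13.84, 14.44 and 14.23. NC was the lowest array and both siRNA arrays were above the mimic. With siPVT1-1 BIK was 2.08-fold higher than on NC, a log2 difference of 1.06, and 99.0% of compared genes had a lower difference. The difference was 0.84 with siPVT1-2 and 0.45 with the mimic. With each array centred on its median the siPVT1-2 difference was 1.07, past 2-fold, and 0.91 relative to the shift of all compared genes, 0.157 there. BIK had 1 probe.

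BID, which caspase-8 cleaves to link death receptors to mitochondria, had log2 levels of 10.64 on NC, 11.29 with the mimic, 11.07 with siPVT1-1 and 11.16 with siPVT1-2. NC was lowest. The differences of 0.65, 0.43 and 0.52 were all within 2-fold, and the 3 treated arrays lay within 0.22 of one another.

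BCL2L11 gave different answers by probe. By its brightest probe the log2 levels were 12.12 on NC, 11.99 with the mimic, 12.16 with siPVT1-1 and 11.90 with siPVT1-2, an almost level row. By its second probe they were 12.19, 11.07, 11.72 and 11.10, which puts the mimic and siPVT1-2 arrays more than 2-fold below NC, at -1.11 and -1.09. The gap between both probes exceeded that of 93.2% of the 2214 genes with 2 probes in the mimic comparison and of 95.5% in the siPVT1-2 comparison. One more probe above the filter gave differences of 0.36, 0.28 and 0.09. The dimmest probe, under the filter, was below NC on the same arrays, at -0.75 with the mimic and -0.64 with siPVT1-2, but stood at 0.08 with siPVT1-1, where the second probe gave -0.47. The remaining probe, also under the filter, stood at 0.23, -0.18 and 0.20. BCL2L11 is known to be spliced into several forms of BIM. Which form each probe reads is not known here, so no direction is given for the gene.

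**Figure D2:**
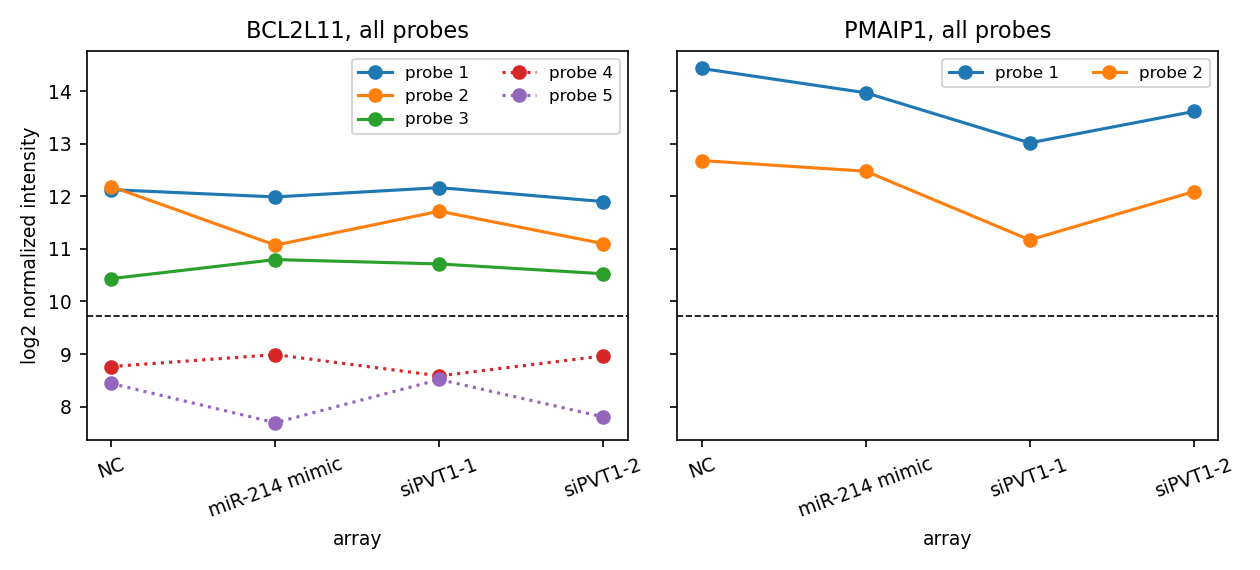
Log2 normalized intensity (y axis) on each array (x axis) for every probe of BCL2L11 (left) and PMAIP1 (right), 1 line per probe numbered from the brightest, dotted where the probe is under the level filter (dashed line). BCL2L11 probes 2 and 5 have their lowest values on the mimic and siPVT1-2 arrays, probe 1 has a much smaller dip there, and probes 3 and 4 have none on the mimic array, whereas both PMAIP1 probes are lowest on siPVT1-1.

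Counted over the 9 genes compared, 1 passed 2-fold with the mimic (MCL1, lower), 2 with siPVT1-1 (PMAIP1 lower, BIK higher) and 0 with siPVT1-2. Of all 10666 compared genes, 4.79% passed with the mimic, 2.96% with siPVT1-1 and 2.53% with siPVT1-2. Of them 2.84% were lower with the mimic, and 1.72% were lower and 1.25% higher with siPVT1-1. The 3 comparisons share the NC array. Of the genes past 2-fold, 40.7% were higher with the mimic, 42.1% with siPVT1-1 and 52.6% with siPVT1-2; with median centring the shares were 63.4, 55.8 and 78.0%, and with values as deposited 35.4, 30.4 and 37.1%. The median difference of the 9 genes was -0.15 with the mimic, 0.04 with siPVT1-1 and -0.23 with siPVT1-2, beside -0.02, 0.01 and -0.01 for all compared genes. Members moved in both directions, so these medians hide the single genes. By a smaller step of 0.5 in log2 difference, chosen after the values were seen, 2 of 9 were apart from NC with the mimic, 4 with siPVT1-1 and 5 with siPVT1-2, where all compared genes gave 24.9, 18.2 and 18.7%.

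**Figure D3:**
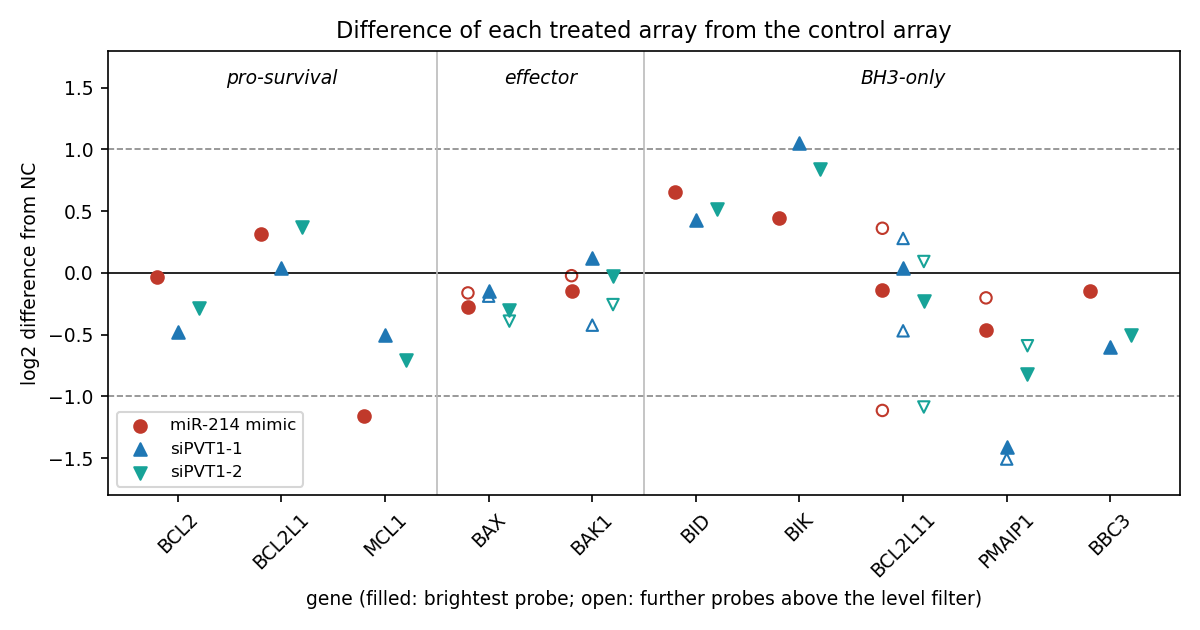
Log2 difference from NC (y axis) of each gene (x axis) on the mimic, siPVT1-1 and siPVT1-2 arrays; filled points are the brightest probe, open points further probes above the level filter, and dashed lines mark 2-fold. By filled points MCL1 crosses the lower line with the mimic, PMAIP1 crosses it with siPVT1-1 and BIK the upper line with siPVT1-1. Open points of the second BCL2L11 probe cross the lower line with the mimic and siPVT1-2. The open point of the second PMAIP1 probe crosses it with siPVT1-1. BCL2 is under the level filter and its points carry no weight.

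Because NC is 1 array, its own place matters. It was the highest of the 4 arrays for 4 of the 9 genes (MCL1, BAX, PMAIP1 and BBC3) and the lowest for 3 (BCL2L1, BID and BIK). With median centring NC was the lowest array for BAX and BAK1 too. With values as deposited it was the highest for BCL2L11 too and no longer the lowest for BCL2L1. Cyclic loess left the order of arrays of the 9 genes as it was. Among all compared genes it was the highest for 30.8% and the lowest for 30%. A shift seen on every treated array cannot be told apart from a deviation of the NC array.

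**Figure D4:**
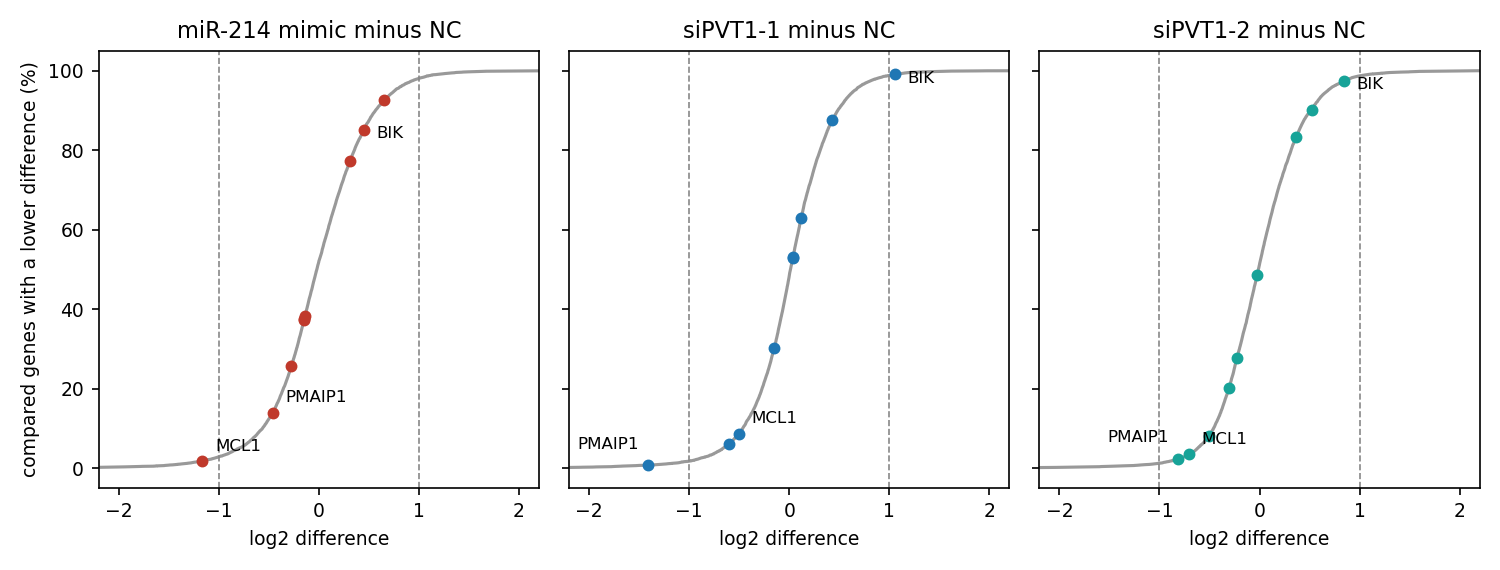
Share of all 10666 compared genes with a lower log2 difference (y axis, in percent) against the log2 difference from NC (x axis), with the 9 BCL2 family genes as points on the curve and 2-fold as dashed lines, for each treated array. MCL1 sits at 1.77% with the mimic, PMAIP1 at 0.69% with siPVT1-1 and BIK at 99.0% with siPVT1-1.

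The treated arrays were also compared with each other, which leaves NC out. Between the 2 siRNA arrays, 0 of the 9 genes, and 0.497% of all compared genes, lay 2-fold apart. For all compared genes the central 95% of siPVT1-1 minus siPVT1-2 differences ran from -0.58 to 0.47. PMAIP1 lay just outside this span, at -0.60, and 2.22% of compared genes had a lower difference; by its second probe it stood at -0.92. The other 8 genes lay between -0.33 and 0.27.

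Between the mimic and siPVT1-1, 0 of the 9 genes passed 2-fold, where 3.02% of all compared genes did. PMAIP1 came nearest, 1.93-fold higher with the mimic, a log2 difference of 0.95; with median centring it was 1.00 and with probes averaged 1.13, both past 2-fold. MCL1 stood at -0.66 and BIK at -0.61. Between the mimic and siPVT1-2, 0 of the 9 passed, against 1.67% of all compared genes. MCL1 stood at -0.46 there, BIK at -0.40, PMAIP1 at 0.36 and BBC3 at 0.36.

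MCL1 and PMAIP1, whose proteins bind each other, were thus ordered differently across the treated arrays. With the mimic MCL1 had the lower difference from NC, by 0.70 on the log2 scale (-1.16 against -0.46). With siPVT1-1 PMAIP1 had the lower one, by 0.91 (-0.51 for MCL1 against -1.41), and with siPVT1-2 the gap was 0.11. These are differences set side by side, not levels.

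Genes whose differences from NC lay nearest to those of a member, by Euclidean distance over the 3 differences of the 4 arrays, were listed for the genes past 2-fold. For PMAIP1 they were IDH1 (distance 0.089), TBC1D31 (0.134) and ACVR1 (0.178), and 4 of 10665 genes lay within 0.25. For MCL1 they were YWHAZ (0.045), DDX59 (0.099) and KLHL5 (0.102), with 49 genes within 0.25. For BIK they were RASSF2 (0.046), ZDHHC16 (0.064) and RHOBTB1 (0.072), with 36 within 0.25. The differences share NC, which draws patterns together.

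The wider death pathway was read from 61 genes in 10 lists, of which 56 had a probe and 48 passed the filter. With the mimic 1 was higher and 1 lower, with siPVT1-1 0 were higher and 3 lower, and with siPVT1-2 0 were higher and 2 lower. All compared genes gave 1.95% higher and 2.84% lower with the mimic. They gave 1.25% higher and 1.72% lower with siPVT1-1, and 1.33% higher and 1.2% lower with siPVT1-2. The median differences over the 48 genes were -0.01, -0.05 and -0.05.

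The list of regulators that act on BH3-only genes held all but 1 of the genes past 2-fold. It was chosen with earlier results of these data known, so neither this nor its median below is an independent finding. DDIT3, the stress factor CHOP, had log2 levels of 16.55 on NC, 15.94 with the mimic, 14.19 with siPVT1-1 and 15.29 with siPVT1-2. Its differences from NC were -0.62, -2.36 and -1.26, so it was lower with both siRNAs. TRIB3, a pseudokinase induced by CHOP and ATF4, was lower on all 3 arrays, at -1.0 with the mimic, -2.07 with siPVT1-1 and -1.59 with siPVT1-2; a second probe gave -0.46, -2.06 and -1.40. ATF3, another stress factor, was lower with siPVT1-1 at -1.23 and stood at -0.25 with the mimic and -0.50 with siPVT1-2. ATF4 itself stood at -0.42, -0.71 and -0.64, and at 0.02, 0.15 and 0.12 by a second probe. By their brightest probes DDIT3, TRIB3, ATF3 and ATF4 had the order of arrays of PMAIP1 and BBC3. They kept it with values as deposited, median centring and cyclic loess. BCL2L13, XIAP and FOXO1 had this order too by their brightest probes, as did 5.18% of all compared genes. For ATF4 it rests on a siPVT1-1 minus siPVT1-2 difference of only -0.07. A common cause was not tested. Over the 7 regulators compared the median difference was -0.29 with the mimic, -0.71 with siPVT1-1 and -0.50 with siPVT1-2, beside the near-zero medians of all genes. The cell cycle factor E2F1 stood at 0.13, 0.47 and 0.29. This list joins stress factors with forkhead and cell cycle factors.

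Among further BH3 proteins, BNIP3, a hypoxia-induced mitophagy receptor, was 1 of 4 compared and the remaining gene past 2-fold, higher with the mimic at 1.10, with 0.72 for siPVT1-1 and 0.79 for siPVT1-2. Its relative BNIP3L stood at 0.55, 0.43 and 0.23. HRK, a BH3-only gene best known in neurons, stood at -0.66, -0.93 and -0.90. It had the same order of arrays as PMAIP1, but its siPVT1-1 minus siPVT1-2 difference was only -0.04.

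The other lists had no gene past 2-fold from NC. Of the further BCL2-like genes, BCL2L12 stood at 0.29 with the mimic, 0.62 with siPVT1-1 and 0.28 with siPVT1-2. BCL2L15 stood at -0.58, 0.24 and -0.08, and its weaker probes under the filter disagreed. Of 7 caspase and apoptosome genes compared, CASP8, the death receptor caspase, stood at 0.69, 0.07 and 0.45 and by a second probe at 0.10, 0.12 and 0.22. The executioner CASP6 stood at 0.01, 0.55 and 0.30. With siPVT1-1 the 7 genes had a median of 0.38, beside 0.01 for all compared genes.

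Of proteins released from mitochondria, the nuclease gene ENDOG stood at 0.64, 0.77 and 0.66 and AIFM1 at 0.18, -0.35 and -0.05. Among inhibitors of apoptosis, BIRC5 (survivin) stood at 0.52, 0.83 and 0.80. The values of BIRC6 were 0.54, -0.38 and 0.21, while its second probe gave -0.30, -0.21 and -0.30. The outer membrane channels VDAC1 and VDAC3 stood at 0.35, 0.67 and 0.41 and at 0.10, 0.31 and 0.14.

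MCL1 protein is removed after ubiquitin ligases mark it. Of the genes of that step, HUWE1 stood at -0.33, -0.23 and -0.35, and by a second probe at -0.02, 0.25 and -0.05. MARCHF5 stood at 0.10, -0.53 and -0.11. The 5 genes of this list had medians of -0.05, -0.09 and -0.11. Among death receptors, TNFRSF10D, a decoy receptor for TRAIL, stood at 0.94, -0.17 and 0.18. Its second probe, under the filter, gave 0.04, -0.10 and -0.59. TNFRSF10B, a death receptor for TRAIL, stood at -0.60, -0.65 and -0.72. A second probe of TNFRSF10B gave -1.12, -1.10 and -1.17, past 2-fold on each array.

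**Figure D5:**
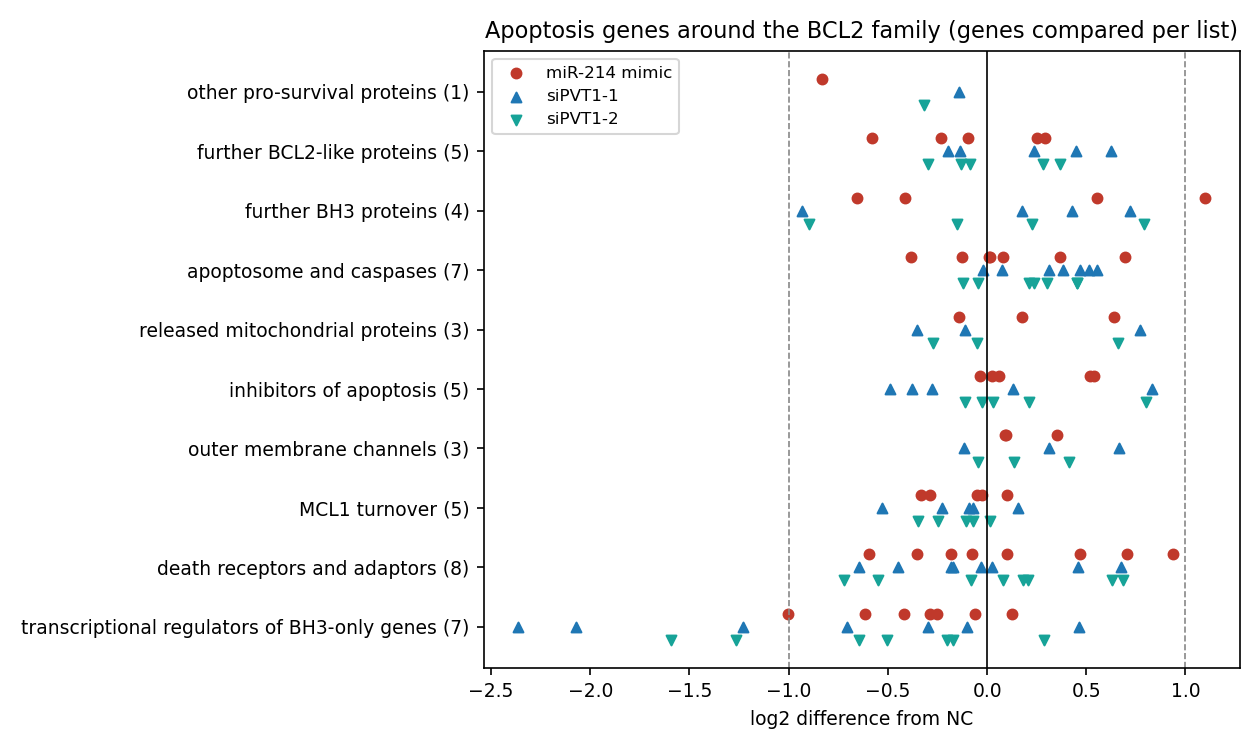
Log2 difference from NC (x axis) of the 48 compared genes of the 10 pathway lists (y axis, with the number of genes compared), 1 point per gene and treated array, by brightest probe; dashed lines mark 2-fold. Points past 2-fold are BNIP3 on the right and DDIT3, TRIB3 and ATF3 on the left in the row of transcriptional regulators, with TRIB3 on the line with the mimic.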

How the data were processed

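Total RNA was amplified, labelled with Cy5 and hybridised in 1 colour to OneArray Plus chips, per the labels' protocols. The authors deposited linear intensities that were already background-subtracted, as the values show: 74 to 131 of 28264 probes per array lay below 0. No label names the software behind them. The 75th percentiles of 3839 to 4081 were not matched, so intensities were quantile-normalized (limma 3.58.1, R 4.3.3), raised to a minimum of 64 and log2-transformed; 2 genes at the floor were not compared. Counts were made in Python 3.11.15 and the counting was tested on simulated data. All 25893 probes with a gene matched the RefSeq table of GRCh38.p14 by Entrez identifier and 2371 had no gene.

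Groups came from the transfection label, 1 array each, so differences were counted by size and no test was run. Replicates, and with them error, were not measured. The family members, the pathway and marker lists and the motifs were chosen with earlier results of these data known. Named pathway genes were those past 2-fold on any treated array and up to 2 further genes per list by largest difference. FAS and second probes were added after their values were seen. BCL2L13, XIAP and FOXO1 were added for their order of arrays, also after their values were seen. Alternatives were values as deposited, median centring, cyclic loess, other level filters, averaged probes, another floor, 16 added before log2 and other thresholds.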

Additional observations from a re-analysis of the deposited data

How the results depend on the processing

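With 1 array per group, signal over background and the array number limit every value, and dim probes are the least certain. Of 66 counts of members past 2-fold, 55 stayed within 1.5 times, but most of these were 0 in both settings. The other floor and the other level filters also leave the difference of each member they compare unchanged. These counts are therefore a weak check. Of 54 medians, 53 moved by less than 0.257, the spread of the differences between the siRNA arrays. Median centring left 0 members past 2-fold with the mimic against NC, and gave 1 with siPVT1-2 against NC and 1 with the mimic against siPVT1-1. All compared genes gave 5.20, 3.33 and 3.21% there. It also moved the siPVT1-2 median to 0.033. Relative to the shift of all compared genes, an alternative chosen after seeing the data, the mimic against siPVT1-1 also gave 1, as did averaged probes. All compared genes gave 2.56% in that comparison with averaged probes. Their share is not given here for the relative alternative. A 1.5-fold threshold gave 2 with the mimic and 3 with siPVT1-2 against NC, 1 between the siRNA arrays and 3 between the mimic and siPVT1-1. All compared genes gave 18.9, 13.3, 3.32 and 15.6% in that order. A 3-fold threshold left 0 with the mimic and 0 with siPVT1-1 against NC, where all compared genes gave 0.778 and 0.684%. Over these settings, other than further probes, MCL1 with the mimic ranged from -1.16 to -0.94, PMAIP1 with siPVT1-1 from -1.46 to -1.25 and BIK with siPVT1-1 from 1.01 to 1.19. By further probes alone, 23 of 42 differences moved by more than that spread. PMAIP1 with siPVT1-1 was the only called value with a further probe, and it kept its sign. MCL1 and BIK had 1 probe each, so their calls were not checked this way. The filter at the 75th percentile compared 6 of the 10 genes. No paired analysis was possible because each group has 1 array.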

Other observations

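MCL1 and BIK differed from NC in opposite directions, yet kept a nearly constant gap on the treated arrays. The MCL1 difference from NC minus that of BIK was -1.61 with the mimic, -1.56 with siPVT1-1 and -1.55 with siPVT1-2. The same fact read between treated arrays, and not a second one, is a log2 difference of the same sign and similar size. It was -0.66 for MCL1 and -0.61 for BIK in the mimic against siPVT1-1, and -0.46 and -0.40 in the mimic against siPVT1-2. The pair was noticed after the values were seen, and how many other gene pairs keep as constant a gap was not counted.

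FAS, the gene of another death receptor, lay under the level filter by its mean. Its log2 differences from NC were -1.25 with the mimic, -1.24 with siPVT1-1 and -1.01 with siPVT1-2, at a signal too dim to count.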
